A study of Homo sapiens with 34 samples.

Results

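The 240 protein-coding genes of chromosome 19 whose symbol is ZNF and a number were followed through 20 lists of CUT&RUN regions. The rule that picks them uses symbol and chromosome, and they make up 240 of the 1451 protein-coding genes of the chromosome and of 19974 on chromosomes 1 to 22 and X. Of them, 83 lie on the p arm, 156 in q13 and 1 between, in q11 to q12. A gene was extended by 1 kb at each end and counted as occupied in a list that had a region over it, by 1 bp or more.

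Most ZNF genes of chromosome 19 encode C2H2 zinc finger proteins that carry a KRAB domain, arose by local duplication and stand in clusters. KRAB zinc finger proteins bind DNA, often in transposable elements, and recruit TRIM28 and the methyltransferase SETDB1, which leads to H3K9me3 and HP1 binding. The clusters themselves are known as broad domains of H3K9me3 over the gene bodies and 3' ends, with promoters that stay active.

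The libraries came from U2OS osteosarcoma cells, an established human line, held by a double thymidine block and collected 3 h after release, in early S phase. CUT&RUN frees the DNA beside an antibody's target with a tethered nuclease. The antibodies were against SMARCA1, an ISWI remodelling ATPase, OGG1, the glycosylase that excises 8-oxoguanine, and Orc6, a subunit of the origin recognition complex. All cells carried an siRNA for 72 h, either the control siGl3 or siOrc6 against Orc6, and were non-treated (NT) or given 5 mM H2O2 for 30 min. Both siRNAs and both treatments were used for SMARCA1 and OGG1, and siGl3 with both treatments for Orc6, which gives 10 groups of 2 libraries. The remaining 14 samples of the series, among them IgG controls, were not analysed here. Nothing in the labels says that the 2 libraries of a group came from separate cultures, so p-values measure the spread between libraries, which may be technical.

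List length moved with treatment. NT lists held 6992 to 63692 regions (median 18286) and H2O2 lists 35381 to 132408 (median 67510), and read depth is unknown. The depletion of Orc6 cannot be checked from region lists. The 4 SMARCA1 lists of siOrc6 cells carry a mark of resubmission in their names, so that mark and the siRNA cannot be told apart for SMARCA1. The second OGG1 library of NT siOrc6 cells stood apart, with 36.3% of other chromosome 19 genes occupied against 62.3% to 74.3% in the other 3 NT OGG1 libraries.

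The 6 promoters below were picked by occupancy and do not stand for all members. ZNF428 (chr19:43619580-43619879, minus strand) was the sole member occupied in all 20 libraries. ZNF549 (chr19:57527106-57527405, plus strand) and ZNF432 (chr19:52048789-52049088, minus strand) had the largest differences between H2O2 and NT libraries, and ZNF284 (chr19:44071909-44072208, plus strand) one of the largest for OGG1. ZNF254 (chr19:24086937-24087236, plus strand) and ZNF91 (chr19:23395422-23395721, minus strand) were occupied in none. Both lie in a stretch, described further on, where an absence of binding and of usable reads cannot be told apart. Each sequence is the 300 bases around the gene start, read 5' to 3' on the gene's strand from the RefSeq annotation of GRCh38.p14, with every CG dinucleotide in capitals. In the order printed they hold 37, 25, 27, 20, 10 and 11 CG dinucleotides. Some other members go the opposite way. The promoter of ZNF574 holds 6 and the gene was occupied in 19 libraries, while that of ZNF677 holds 34 and the gene was occupied in 0.
ZNF428: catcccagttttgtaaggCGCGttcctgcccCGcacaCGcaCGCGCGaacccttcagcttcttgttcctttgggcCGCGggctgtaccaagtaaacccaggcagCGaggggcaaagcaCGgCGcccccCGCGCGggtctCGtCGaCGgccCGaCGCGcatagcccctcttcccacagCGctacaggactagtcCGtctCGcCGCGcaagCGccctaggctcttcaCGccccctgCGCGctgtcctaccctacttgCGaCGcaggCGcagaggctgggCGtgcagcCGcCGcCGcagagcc
ZNF549: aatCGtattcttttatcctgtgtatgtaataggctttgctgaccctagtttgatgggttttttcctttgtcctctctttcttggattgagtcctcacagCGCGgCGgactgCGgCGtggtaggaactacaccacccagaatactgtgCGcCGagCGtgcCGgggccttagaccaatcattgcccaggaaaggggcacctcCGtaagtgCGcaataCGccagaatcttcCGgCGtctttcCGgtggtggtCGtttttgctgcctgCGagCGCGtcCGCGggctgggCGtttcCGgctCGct
ZNF432: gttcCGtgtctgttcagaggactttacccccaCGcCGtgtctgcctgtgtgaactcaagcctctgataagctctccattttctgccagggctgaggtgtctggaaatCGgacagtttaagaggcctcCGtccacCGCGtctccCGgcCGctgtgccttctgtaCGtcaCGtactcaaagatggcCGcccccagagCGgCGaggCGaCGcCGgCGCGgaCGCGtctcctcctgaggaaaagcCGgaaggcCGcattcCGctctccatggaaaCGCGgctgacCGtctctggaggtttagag
ZNF284: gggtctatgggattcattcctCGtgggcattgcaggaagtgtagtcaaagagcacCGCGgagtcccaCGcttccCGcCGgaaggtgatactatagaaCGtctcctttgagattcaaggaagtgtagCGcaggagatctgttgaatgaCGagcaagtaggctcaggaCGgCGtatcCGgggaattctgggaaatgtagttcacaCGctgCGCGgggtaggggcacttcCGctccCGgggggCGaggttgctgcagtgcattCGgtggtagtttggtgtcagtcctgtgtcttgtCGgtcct
ZNF254: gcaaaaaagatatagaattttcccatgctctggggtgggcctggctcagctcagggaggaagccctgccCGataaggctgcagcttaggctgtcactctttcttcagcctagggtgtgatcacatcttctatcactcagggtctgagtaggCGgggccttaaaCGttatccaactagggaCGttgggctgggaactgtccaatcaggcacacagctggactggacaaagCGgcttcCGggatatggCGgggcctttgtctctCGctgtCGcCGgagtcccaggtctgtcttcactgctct
ZNF91: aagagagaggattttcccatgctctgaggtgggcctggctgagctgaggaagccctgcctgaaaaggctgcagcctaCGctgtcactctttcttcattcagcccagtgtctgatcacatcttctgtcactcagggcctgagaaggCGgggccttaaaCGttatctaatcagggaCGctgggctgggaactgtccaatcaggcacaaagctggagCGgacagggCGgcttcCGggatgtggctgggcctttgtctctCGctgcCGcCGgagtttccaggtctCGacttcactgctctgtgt

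Members were occupied less often than the other genes of their chromosome. Over the 20 libraries a mean of 34.2% of members was occupied, with a range of 2.5% to 71.2%, against 57.1% of the 1211 other protein-coding genes of chromosome 19 (4.13% to 89.3%). The share was lower for members in 20 of 20 libraries, by a mean of 22.8 percentage points (range 1.63 to 56.0). With each list limited to the same number of covered bases it was lower in 16 of 20, by 5.60 points. The median member was occupied in 6 of 20 libraries, the median other gene of the chromosome in 12 and the median of the 237 ZNF genes on other chromosomes in 14, the same as for all protein-coding genes. Members and the ZNF genes elsewhere had similar median lengths of 23.1 kb and 23.5 kb.

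The NT libraries held few members. In siGl3 cells without treatment SMARCA1 occupied 2.5% and 7.5% of members, OGG1 12.5% and 15.0%, and Orc6 13.8% and 41.7%. In NT siOrc6 cells SMARCA1 occupied 20.4% and 12.5% and OGG1 18.3% and 14.2%. The second Orc6 library was the highest, and its list of 63692 regions was also the longest of the NT lists. No NT list touched 128 of the 240 members (53.3%), against 17.5% of other chromosome 19 genes and 20.9% of all protein-coding genes. These 128 include the 35 members of a stretch that no list touches, described further on. Of the 128, 77 were occupied in at least 1 H2O2 list. So were 120 of the 212 other chromosome 19 genes without an NT region, and 2137 of 4168 among all protein-coding genes.

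After H2O2 the shares of members were higher. They were 28.7% and 30.8% for SMARCA1 in siGl3 cells, 67.9% and 68.3% for OGG1 with siGl3, and 37.5% and 23.3% for Orc6. Under siOrc6 they were 64.6% and 69.2% for SMARCA1 and 64.6% and 71.2% for OGG1. SMARCA1 and OGG1 libraries with H2O2 lay above their NT counterparts without overlap under each siRNA, while the Orc6 libraries overlapped. The same was true of other chromosome 19 genes and of all protein-coding genes. List length differed with treatment, as given above. The mean over 10 libraries was 52.6% of members with H2O2 and 15.8% in NT. It was 69.04% and 45.1% for other chromosome 19 genes, 77.3% and 47.1% for ZNF genes elsewhere, and 73.4% and 48.4% for all protein-coding genes.

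**Figure D1:**
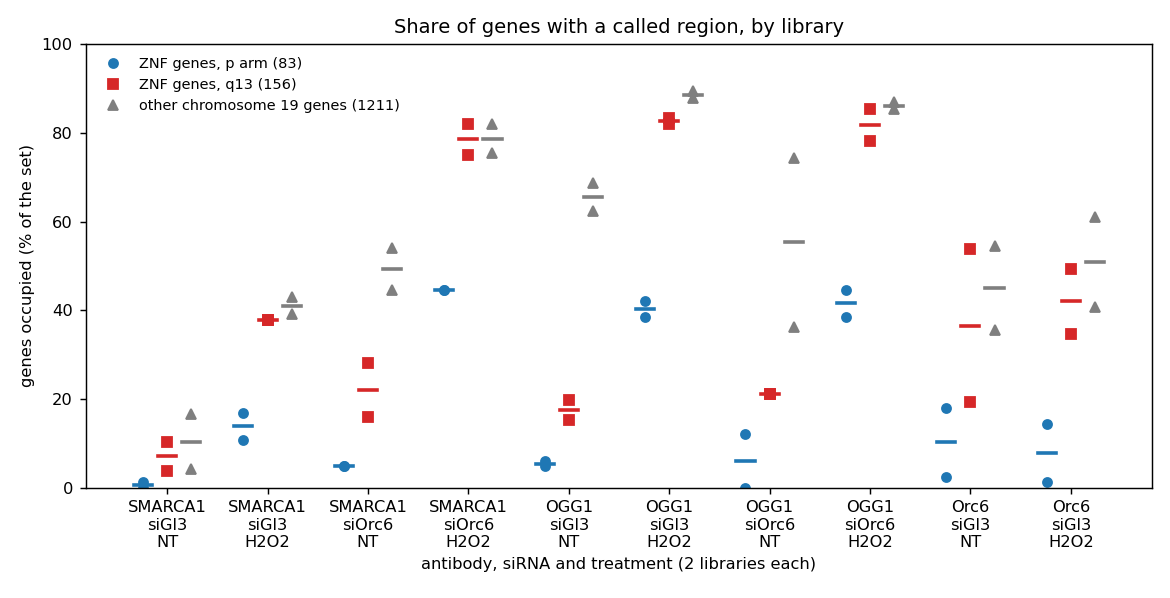
Share of genes with a called region (% of the set, y axis) in each of the 10 groups (x axis: antibody, siRNA and treatment). Points are the 2 libraries of a group and bars their mean. Members of q13 lay above those of the p arm in 20 of 20 libraries, and members as a whole lay under other chromosome 19 genes in all 20.

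Single members were tested by an exact permutation of the H2O2 and NT labels within strata of antibody and siRNA, with Benjamini-Hochberg adjustment over the 5141 genes whose totals allow a p under 0.05. In this comparison 78 of 240 members (32.5%) were occupied in more H2O2 than NT libraries at an adjusted p under 0.05, and 0 in fewer (0.00501% of all genes in fewer). The background was 14.6% of all protein-coding genes, and other chromosome 19 genes gave 8.51% and ZNF genes on other chromosomes 22.8% (54 of 237). Among genes whose totals allowed a call the shares were closer, with 78 of 125 members (62.4%) against 56.8% of all genes. The calls fell on 19 of 83 p-arm members (22.9%) and 59 of 156 q13 members (37.8%). Among members whose totals allowed a call the order of the arms was the opposite, 19 of 28 (67.9%) on the p arm and 59 of 97 (60.8%) in q13. Without the 35 members of a stretch of the p arm that no list touches, described further on, 19 of 48 p-arm members (39.6%) were called. These counts come from lists of unequal length: when each list was limited to its 6992 regions of highest signal, members occupied were 5.33% in NT and 5.25% in H2O2 libraries on average, and 0 passed (1 at an unadjusted p under 0.05). With regions counted at gene ends alone 49 members passed, beside 7.67% of all genes.

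Of the 78 called members, 16 differed by 8 or more libraries, 15 of them in q13 and 1, ZNF69 of cluster 2, on the p arm (8 H2O2 libraries and 0 NT). The 12 described next are those first by this difference and, where tied, by covered share. ZNF549 (chromosome 19, 57527356 to 57540876) was occupied in 9 of 10 H2O2 and 0 of 10 NT libraries (exact permutation p = 0.000772, adjusted p = 0.0303). Its regions covered 7.58% and 9.497% of the extended gene in SMARCA1 siGl3 libraries with H2O2, 7.27% and 5.86% in SMARCA1 siOrc6, 10.2% and 12.6% in OGG1 siGl3, 11.5% and 19.4% in OGG1 siOrc6, and 15.9% and 0 in Orc6. The sole H2O2 library without a region at ZNF549 was thus the second of Orc6. ZNF432 (52031378 to 52048838), a KRAB zinc finger protein known as a factor of the DNA damage response, was occupied in 10 of 10 H2O2 libraries and in 1 of 10 NT libraries, the second of Orc6 (exact permutation, adjusted p = 0.0303). Its covered share with H2O2 ran from 4.25% to 11.6%, and was 10.5% in that NT library.

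ZNF543, ZNF749, ZNF888, ZNF223 and ZNF845 were each occupied in 8 H2O2 libraries and 0 NT libraries. ZNF221, ZNF226, ZNF790, ZNF260 and ZNF547 were occupied in 9 H2O2 libraries and 1 NT library. For these 10 genes the adjusted p of the exact permutation test was 0.0303 or 0.0337. ZNF221, ZNF223 and ZNF226 lie in 1 cluster of q13, and ZNF543, ZNF547, ZNF549 and ZNF749 in another. The extended spans of 51 members (21.2%) overlap that of another member, so neighbouring calls can share a region.

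OGG1 was tested alone over its 8 libraries with Fisher's exact test, 4 H2O2 against 4 NT, with both siRNAs pooled. It gave 73 members (30.4%) occupied in 4 of 4 H2O2 and 0 of 4 NT libraries, at an exact p = 0.0286 and adjusted p = 0.0323, against a background of 7.84%. Among the genes with the total of 4 that this test needs, 73 of 74 members and 88.6% of all genes had this pattern. Over the 3 antibodies 55 of the 73 were also called, but that test holds the same 8 OGG1 libraries. The overlap is thus partly built in. The opposite pattern was found for 0 members. Without any 1 of the 4 OGG1 libraries with H2O2, with lists of equal length, or with the replicate number as a block (4 pairs, no p under 0.125), 0 members passed.

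By mean covered share with H2O2, the OGG1 members were led by ZNF552 (37.0% of the extended gene), ZNF284 (36.4%), ZNF155 (34.7%), ZNF304 (34.3%), ZNF222 (33.8%) and ZNF302 (33.3%), followed by ZNF419, ZNF543, ZNF805, ZNF582, ZNF20 and ZNF221. At ZNF284 (44072159 to 44089613) the 4 OGG1 libraries with H2O2 covered 48.5% and 20.4% (siGl3) and 31.4% and 45.4% (siOrc6) of it, and the 4 NT libraries none. ZNF304, a KRAB protein known to recruit corepressors to the INK4-ARF locus, was occupied in 4 OGG1 and 1 Orc6 library with H2O2 and in 0 SMARCA1 libraries. ZNF302 was occupied in 10 of 10 H2O2 libraries and 3 of 10 NT libraries, the latter from SMARCA1 and Orc6. ZNF20, of cluster 2 on the p arm, was the sole p-arm gene among these 12.

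SMARCA1 alone, with both siRNAs pooled, gave 0 members past the adjusted threshold by Fisher's exact test. At an unadjusted p under 0.05 there were 12 (5.00%, against 5.02% of all genes), and the lowest adjusted p was 0.0586. The 12 were occupied in 4 of 4 H2O2 and 0 of 4 NT SMARCA1 libraries. Those with the largest covered share were ZNF543 (13.7%), ZNF77 (9.83%), ZNF227 (8.72%), ZNF547 (8.10%) and ZNF225 (7.74%). ZNF543 (57320472 to 57330770) had the same pattern for OGG1, with 24.3% and 31.9% covered in siGl3 and 22.8% and 33.7% in siOrc6 cells after H2O2. A test of 4 against 4 passes the adjusted threshold only if at least 57.1% of the genes with a total of 4 show the pattern, and 48.6% did for SMARCA1. Whether the response of members differs between the antibodies was not tested.

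Orc6 had 2 libraries per treatment and allows no p under 0.3333 in Fisher's exact test. ZNF749 was the sole member occupied in both H2O2 and neither NT Orc6 library (0.417% of members, against 1.95% of all genes), and 0 members had the opposite pattern (0.31% of all genes). The NT libraries of Orc6 held 33 and 100 members and the H2O2 libraries 90 and 56, so the spread between replicates exceeded the difference between treatments.

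Orc6 depletion was compared over SMARCA1 and OGG1. The exact permutation test of 8 siOrc6 against 8 siGl3 libraries, within antibody and treatment, gave 0 members at either an adjusted or an unadjusted p under 0.05, and 0 of all genes after adjustment (0.235% more often with siOrc6 at the unadjusted p). SMARCA1 alone gave 0 after adjustment by Fisher's exact test and 4 at the unadjusted p, against 2.26% of all genes (1.67% of members). These 4 were ZNF575, ZNF579, ZNF57 and ZNF583, each occupied in 4 of 4 siOrc6 and 0 of 4 siGl3 SMARCA1 libraries (adjusted p = 0.126). With lists of equal length this comparison called 6 members and 5.15% of all genes.

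ZNF575 (43530835 to 43536087), a gene of 5.25 kb, showed the pattern over most of its length. Its covered share in SMARCA1 siOrc6 libraries was 76.0% and 81.1% in NT and 17.9% and 68.3% with H2O2, and 0 in all 4 SMARCA1 siGl3 libraries. The 8 OGG1 libraries covered 68.1% to 100% of it under either siRNA. ZNF579 was similar, with 34.9% to 45.0% covered in SMARCA1 siOrc6 libraries, 0 in siGl3, and 38.7% to 81.3% for OGG1. OGG1 alone, with treatments pooled in the same way, gave 0 members and 0 genes for siOrc6 at the unadjusted p. The largest differences there were 2 libraries of 4, with 7 members higher under siOrc6, among them ZNF404 and ZNF230, and 2 lower, ZNF132 and ZNF266.

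Within H2O2 the SMARCA1 lists of the 2 siRNAs overlapped in length, 69927 and 47072 regions in siGl3 and 35381 and 65093 in siOrc6 cells, but held 1078, 985, 1979 and 3227 regions on chromosome 19. Of the members, 62 (25.8%) were occupied in both siOrc6 and neither siGl3 library with H2O2, against 24.9% of other chromosome 19 genes and 10.7% of all genes, and 1 had the opposite pattern (1% of all genes). In NT cells the same comparison gave 15 members (6.25%), against 25.5% of other chromosome 19 genes and 17.6% of all. Of the 62, 43 were occupied in 4 of 4 OGG1 libraries with H2O2. So were 132 of all 240 members, and 116 of the 147 members occupied in both SMARCA1 siOrc6 libraries with H2O2. With 2 libraries against 2 there is no test of these counts.

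SMARCA1 and OGG1 were compared within siRNA and treatment. The exact permutation test of 8 against 8 libraries called 0 members, with 1 at the unadjusted p, ZNF444, occupied in 8 OGG1 and 3 SMARCA1 libraries (p = 0.0278, adjusted p = 0.0607). It called 0 of all genes too, and 5.01% were more often OGG1 at the unadjusted p. ZNF575 and ZNF296 were occupied in 8 OGG1 and 4 SMARCA1 libraries, and ZNF541 and ZNF792 in 7 and 3. With each list limited to the same number of covered bases 2 of 240 members passed, both more often SMARCA1, against 7.83% of all genes. ZNF296 turned towards SMARCA1, by 12.5 percentage points of libraries. Without the second OGG1 library of NT siOrc6 cells 4 members passed.

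Members differed by chromosome arm. A mean of 17.5% of the 83 p-arm members was occupied per library (range 0 to 44.6%), against 42.7% of the 156 q13 members (3.85% to 85.3%), and q13 was higher in 20 of 20 libraries, by 25.2 points on average. For the other genes of the chromosome q13 was higher than the p arm in 18 of 20 libraries, by 13.9 points. With lists of equal length the members' difference was 6.74 points, and with equal covered bases 3.57. The median p-arm member was occupied in 0 of 20 libraries and the median q13 member in 8. The 51 members occupied in none made up 21.2% of members, against 7.60% of other chromosome 19 genes and 10.2% of all protein-coding genes. Of the 51, 42 lay on the p arm (50.6% of its members, against 7.79% of its other genes). The remaining 9 lay in q13 (5.77%, against 7.52% of its other genes).

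Most of those 42 lie in 1 stretch. No region of any of the 20 lists falls in chromosome 19, 19778021 to 24891385, a stretch of 5.11 Mb in 19p12 that runs into the centromere and holds 37 protein-coding genes, 35 of them members. It is the 4th longest of 59 stretches of at least 1 Mb without a region and the 2nd by number of genes. The first by genes lies on chromosome 6 (28510432 to 33480034), with 171 genes. The sources used here do not state how reads that align to several places, or regions to be left out, were treated, and an absence of binding and an absence of usable reads cannot be told apart in this stretch. Without its 35 members q13 was higher than the p arm by 12.4 points, in 19 of 20 libraries, and members were under other chromosome 19 genes by 17.0 points, in 19 of 20.

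The 37 members of the cluster that runs through this stretch have a median length of 34.6 kb, against 23.1 kb for all members. ZNF254 (24033449 to 24129968, 96.5 kb) and ZNF91 (23305004 to 23395471, 90.5 kb), the repressor of SVA retrotransposons, lead the members occupied in none by length. ZNF676, ZNF730, ZNF208, ZNF431, ZNF43 and ZNF723, of 46.5 kb to 81.2 kb, follow in the same stretch. Outside it 16 of 205 members were occupied in none, 7 of 48 on the p arm and 9 of 156 in q13, beside 92 of the 1211 other chromosome 19 genes. The longest of these were ZNF578 (63.3 kb, q13) and ZNF560 (60.8 kb, p arm).

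**Figure D2:**
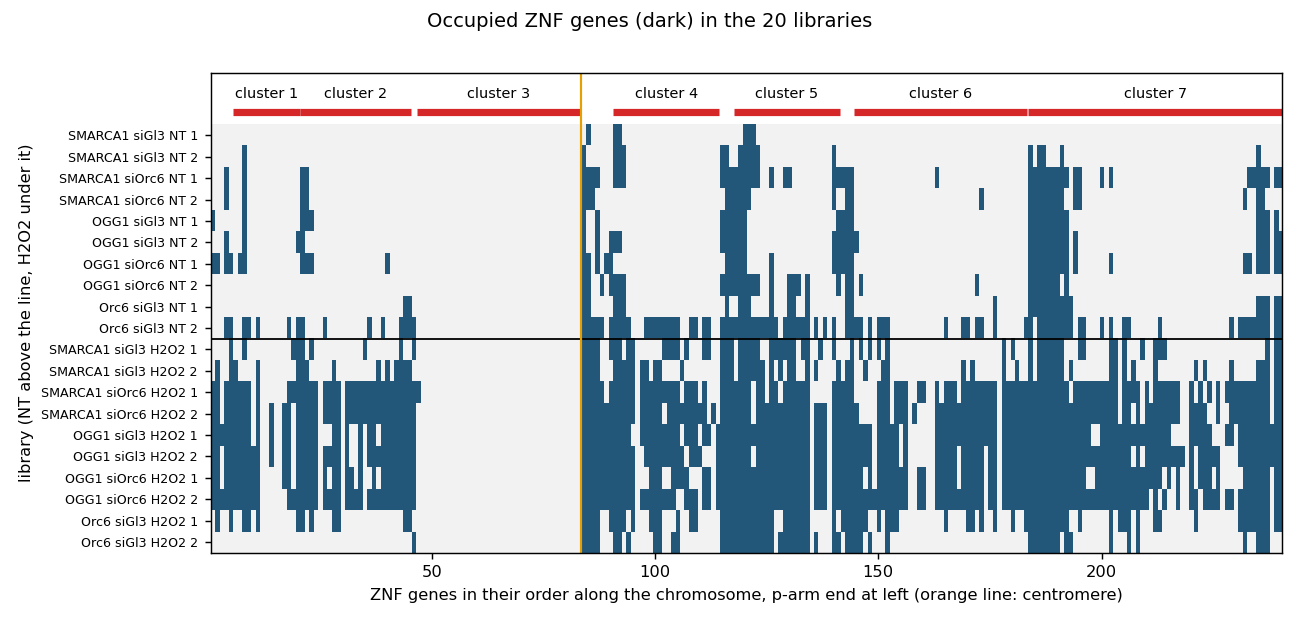
The 240 members in their order along the chromosome (x axis) and the 20 libraries (y axis, NT above the black line and H2O2 under it), with a dark cell where a member was occupied. Red bars mark the 7 clusters and the orange line the centromere. Cluster 3 holds 1 dark cell, ZNF101 in a SMARCA1 siOrc6 library with H2O2, and dark blocks shared by NT and H2O2 libraries stand in clusters 5 and 7.

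Clusters were taken as runs of at least 8 members with at most 1 Mb from the start of 1 member to the next, which gave 7 clusters with 221 of the 240 members. On the p arm, cluster 1 (7069703 to 9786160, 15 members) had a mean of 8.67% of its members occupied per NT library and 42.7% per H2O2 library. Cluster 2 (11483429 to 12633834, 25 members) had 8.40% and 56.8%. Cluster 3 (19668153 to 24129968, 37 members) had 0 and 0.270%, and its sole occupied member, ZNF101, lies outside the empty stretch. In clusters 1 and 2 the members lay under the 54 and 4 other protein-coding genes among them, which had 31.3% and 35.0% in NT and 56.9% and 70.0% with H2O2.

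In q13, cluster 4 (36182060 to 37779586, 24 members) had 13.3% and 61.3%, cluster 5 (43530835 to 45076478, 24 members) 32.5% and 77.9%, cluster 6 (51571283 to 53580269, 39 members) 4.87% and 52.8%, and cluster 7 (55476617 to 58489533, 57 members) 23.3% and 63.5%. Cluster 6 was the lowest of the 4 in NT and, with the 1 Mb limit, cluster 5 the highest under both treatments. With a limit of 0.5 Mb cluster 7 split into a part of 16 members, with 51.9% and 79.4%, and a part of 41, with 12.2% and 57.3%. The part of 16 then lay above cluster 5, which had 31.7% and 77.8%. In the q13 clusters of the 1 Mb limit members did not lie under the other genes of the cluster throughout. In cluster 4 the 6 other genes had 5.00% and 33.3%, in cluster 7 the 47 others had 25.3% and 53.6%, in cluster 6 the 16 others had 18.1% and 49.4%, and in cluster 5 the 27 others had 61.9% and 81.9%. Calls for H2O2 over 3 antibodies numbered 5, 11, 0, 8, 12, 19 and 19 in clusters 1 to 7, which is 33.3%, 44.0%, 0, 33.3%, 50.0%, 48.7% and 33.3% of their members, beside 14.6% of all genes.

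**Figure D3:**
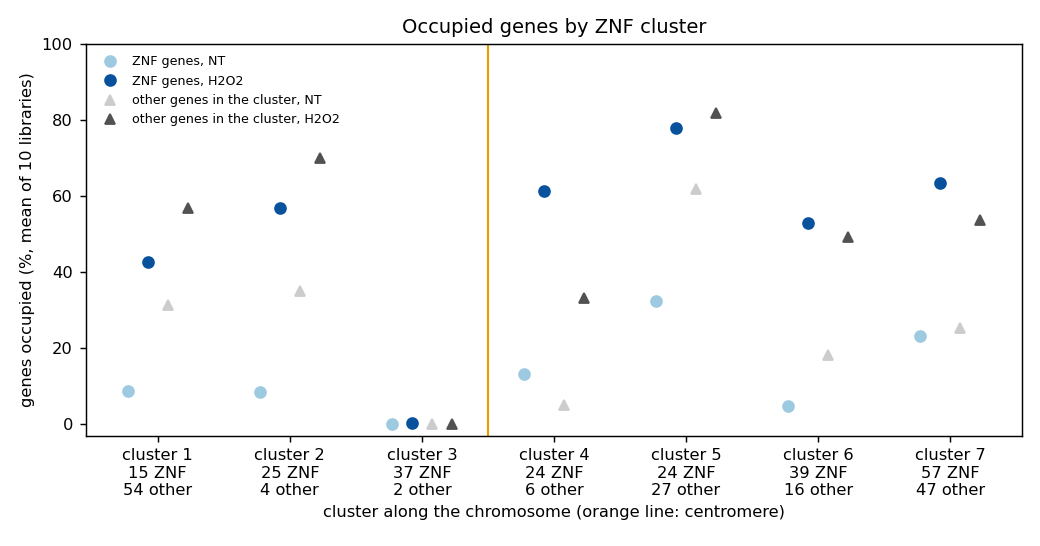
Share of genes occupied (%, mean of the 10 NT or 10 H2O2 libraries, y axis) in each of the 7 ZNF clusters (x axis), for members (circles) and for the other protein-coding genes within the cluster (triangles). In cluster 3 the other genes sit at 0 under both treatments, and members at 0 in NT and 0.270% with H2O2. Members of cluster 6 go from 4.87% in NT to 52.8% with H2O2.

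In cluster 3 members lay at 0 or 1 library, and in the other clusters the extremes were far apart. In cluster 5 ZNF428 (43607224 to 43619629) was occupied in 20 of 20 libraries, with 14.2% to 53.7% of it covered in NT and 14.0% to 100% with H2O2, while ZNF229 of the same cluster was occupied in 0. In cluster 7 ZNF524, known to bind telomeric repeats, was occupied in 19 libraries and ZNF418 in 0. In cluster 4 ZNF146, which carries zinc fingers but no KRAB domain, was occupied in 17 and ZNF382 in 0. In cluster 6 ZNF432 led with 11 and ZNF578 had 0. On the p arm ZNF414 led cluster 1 and ZNF653 cluster 2, with 15 libraries each, against 0 for ZNF560 and ZNF763.

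Where strand was known and the gene spanned at least 6 kb, regions were placed within the gene. For these 203 members the 1 kb on each side of the gene start held a region in 11.3% of member and library pairs in NT and 45.7% with H2O2. The middle of the gene had 2.96% and 8.37%, and the gene end 3.00% and 8.33%. For 746 other chromosome 19 genes the start had 39.6% and 63.1%, the middle 15.1% and 34.1%, and the end 19.99% and 39.9%. With H2O2, members were thus nearest to the other genes at the start. In SMARCA1 siOrc6 libraries with H2O2 the start was at 60.3% of members and 73.3% of others, and the middle at 5.91% and 24.7%.

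With H2O2 the start was occupied in 28.2% of 72 p-arm members and 55.1% of 130 q13 members, and the end in 2.22% and 11.6%. Between the arms the gap in percentage points was thus wider at the start, and the ratio larger at the end. OGG1 in siGl3 cells with H2O2 occupied 73.8% of q13 starts and 38.9% of p-arm starts. The p-arm set includes members of the stretch that no list touches, of which 27 have a known strand. These shares were not computed without them.

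**Figure D4:**
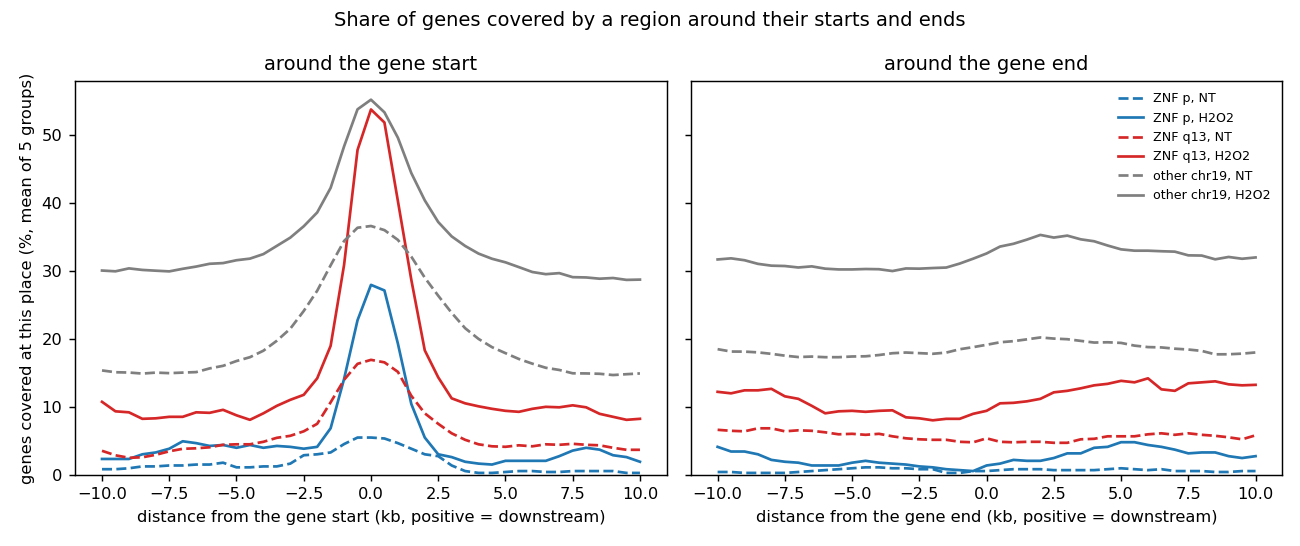
Share of genes covered by a region (%, mean of 5 groups, y axis) against distance from the gene start (left) and gene end (right) in kb. Solid lines are H2O2 and dashed lines NT groups, for p-arm members (blue), q13 members (red) and other chromosome 19 genes (grey). Members show a peak at the start and no peak at the end, and the grey lines stay above the members' lines away from the start.

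Gene length moved with these differences. Chromosome 19 genes were split by length into 3 classes of equal size. In the short class (up to 9.76 kb) the 26 members were occupied in 53.1% of libraries on average and the 458 others in 50.9%, so the difference had the opposite sign (2.21 points). In the middle class, 88 members had 37.0% and 395 others 57.3%. In the long class, of 22.6 kb and more, 126 members had 28.4% and 358 others 64.7%. Shares were thus lower in longer members and higher in longer other genes. In members this trend was smaller without the stretch that no list touches. Gene length and number of libraries occupied had a Spearman rho of -0.25 over 210 members, and of -0.06 over 183 outside the stretch. For p-arm members rho was -0.46 over 73 and 0.11 over 46 outside the stretch. Between q13 and the p arm the difference was 15.5, 14.0 and 28.8 points in the 3 classes, with the members of the stretch included.

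The RefSeq promoter table held 210 of the 240 members. Their 300 bases had a median of 20 CG dinucleotides, 15 on the p arm (73 promoters) and 23 in q13 (136), with 10 in cluster 3 (29), against 21 for other chromosome 19 genes (975). The 39 members with a promoter that were occupied in 0 libraries had a median of 11, and the 59 occupied in 10 or more a median of 23. Of those 39, 27 lie in the stretch that no list touches, with a median of 10, and the 12 outside it had a median of 17.5, against 22 for all 183 members outside it. Across the 210 members the number of CG dinucleotides and the number of libraries occupied had a Spearman rho of 0.51 (0.69 over the p arm, 0.27 over q13, 0.34 over other chromosome 19 genes). Without the members of that stretch rho was 0.33 over 183 members and 0.47 over 46 of the p arm. These are descriptions over genes, which share libraries and, within clusters, ancestry.

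**Figure D5:**
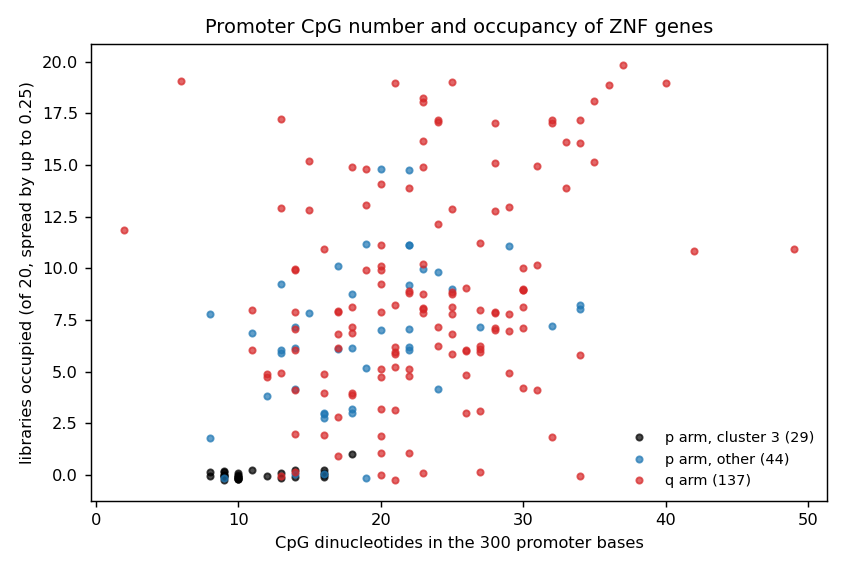
Number of CG dinucleotides in the 300 promoter bases (x axis) and number of libraries occupied (y axis, points spread by up to 0.25) for 210 members. Cluster 3 (black, 29 genes) sits at 8 to 18 CG dinucleotides and at 0 or 1 library, and the q arm (red) spans 2 to 49.

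Short motifs were counted on both strands of the same bases. CCAAT was present in 29 of 29 cluster 3 promoters and in 82.2% of p-arm, 37.5% of q13 and 36.3% of all promoters. CCGGAAG, the core of an ETS site, was present in 44.3% of members and 72.4% of cluster 3, against 13.4% of other chromosome 19 promoters and 14.2% of all. GGGCGG, an Sp1 box, was in 69.5% of members and 58.5% of all, and the 10-base NRF1 palindrome in 2.38% and 1.76%. Each motif was counted on its own, also where it overlapped another. Stretches of 30 bases shared with another member's promoter made up a median of 5.54% of cluster 3 promoters and a highest share of 15.5%, while 165 of the 210 promoters shared none. The printed promoters of ZNF254 and ZNF91 both belong to this cluster. A match is a description of letters in this window and not a site.

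The proteins that KRAB zinc finger proteins work with were looked up by the same rule. Of 23 listed genes, the median was occupied in 15 libraries, with a mean of 54.8% of the list per NT library and 83.9% per H2O2 library. TRIM28, the KRAB corepressor, was occupied in 5 NT and 9 H2O2 libraries (adjusted p = 0.149, exact permutation), and SETDB1 in 6 and 9. Of these, 5 passed for H2O2 over 3 antibodies (background 14.6%): ATRX and SMARCAD1 at an adjusted p of 0.0327, and MPHOSPH8, PPHLN1 and HDAC2 at 0.0347. MPHOSPH8 and PPHLN1 belong to the HUSH silencing complex. CHD4 and CBX5 were occupied in 20 of 20, and EHMT2 and DAXX in 0, both within the stretch on chromosome 6 that no list touches. ZNF274, a member that brings SETDB1 to the 3' ends of ZNF genes, was occupied in 3 NT and 8 H2O2 libraries.

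The study also gives windows for SMARCA1, under the names up and ns, as positions without values. The samples behind their names are not stated in the sources used here. In the authors' deposited table of NT windows named up, 20 members (8.33%) held a window, against 32.04% of other chromosome 19 genes and 34.0% of all. In the authors' deposited table of H2O2 windows named up, 86 members (35.8%) did, against 52.6% and 50.1%. In that table of the authors 33.7% of p-arm and 36.5% of q13 members held a window. In the authors' deposited tables of windows named ns, 6 members (2.5%) held an NT window, against 7.27% of other chromosome 19 genes and 10.5% of all, and 74 members (30.8%) an H2O2 window, against 43.0% and 44.5%. For this H2O2 table of the authors the arms lay apart, at 9.64% of p-arm and 41.7% of q13 members.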

How the data were processed

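The authors' deposited lists give, for each library, regions with their total signal and maximum signal as whole numbers. Per the submitters' processing notes SEACR 1.1, Bowtie2, the build hg38, bedtools and SAMtools were used, beside deepTools, DiffBind and DESeq2; their roles in these lists are not stated. The sources used here do not state the control, the normalization or the depth, and signal served only to rank regions within a list. Windows in the authors' deposited tables were used by position.

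Genes, spans and promoters came from RefSeq tables of GRCh38.p14. Occupancy used an extension of 1 kb and an overlap of 1 bp. All 19974 genes were tested two-sided, by exact permutation within strata or by Fisher's exact test for 4 against 4. The tests of 4 against 4 pool the other factor, siRNA or treatment. Benjamini-Hochberg adjustment was over genes whose totals can reach p under 0.05. Shares over members have no test. Members and lists were chosen with earlier results of these data known. Named genes are the 12 called members of largest difference per test (5 where under 5 passed), the members occupied in all or none, at most 10, and the extremes of each cluster. Motifs, shared 30-base stretches and the omission of the empty stretch were chosen after the data were seen.

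Replicate numbers are a batch in the labels and pair the samples. The difference of replicate 1 and 2 correlated between groups with a median r of 0.00278 (45 pairs of groups, -0.0960 to 0.188). Tested on simulated data of 19974 genes, the permutation tests recovered 200 of 200 genes occupied in every library of 1 arm and none of the other. Such genes give the smallest p a test allows. How often smaller differences are found was not measured. Fisher's test of OGG1 with H2O2 recovered 200 where other genes rarely reached a total of 4, and 0 where 1348 genes could pass. Python 3.11.15, numpy 2.4.6, scipy 1.17.1 and pandas 2.3.3 were used.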

Additional observations from a re-analysis of the deposited data

How the results depend on the processing

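Alternatives covered the gene window, the overlap, list length, covered bases, the replicate block, gene length, each library left out and the members of the empty stretch. For H2O2 over 3 antibodies the 78 member calls became 49 at gene ends and 56 with the replicate block. Of all genes 14.6% were called at first, and 7.67% and 10.7% in these alternatives. Member calls became 0 with lists of equal length and 0 with equal covered bases. They became 57 to 110 without 1 library (110 without the second NT Orc6 library, 57 without the second SMARCA1 siOrc6 library with H2O2). For OGG1 with H2O2 the 73 calls became 0 with equal length, 0 with equal covered bases and 0 with the replicate block, in which 4 pairs allow no p under 0.125. They became 0 to 83 without 1 library: 0 in 4 of 8 cases and 83 without the second OGG1 library of NT siOrc6 cells. SMARCA1 against OGG1 went from 0 to 2 members with equal covered bases, both more often SMARCA1, against 7.83% of all genes. In that setting ZNF296 reversed to 12.5 points. Without 1 library the count was 0 to 4 (4 without that same OGG1 library). SMARCA1 with siOrc6 went from 0 to 6 members with equal length, beside 5.15% of all genes. With the replicate block the other member counts stayed at 0, but at most 2 members could pass in any of these comparisons. For SMARCA1 against OGG1 the block called 1.18% of all genes, against 0 without it. The difference of members from other chromosome 19 genes, -22.8 points, was -5.60 with equal covered bases, 2.21 in the short and -36.4 in the long class of gene length, and -24.0 to -21.1 without 1 library. The p arm against q13 difference, 25.2 points, was 6.74 with equal length, 3.57 with equal covered bases, 15.5 in the short and 14.0 in the middle class, 12.4 without the empty stretch, and 24.2 to 26.3 without 1 library. At equal length and equal covered bases the lists were cut to the size of the smallest. The cause of a change was not tested for any alternative. The remaining counts stayed at 0 in every alternative.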

Other observations

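Other gene families of chromosome 19 were counted by the same rule. The 37 LILR, KIR and SIGLEC genes, receptors of immune cells, were occupied in a mean of 4.59% per NT library and 20.5% per H2O2 library, and 21 of them in none. The 20 olfactory receptor genes had 10.5% with H2O2, and 10 of them were occupied in none. The 15 kallikrein genes (KLK) had 47.3% and 74.0% and the 22 PSG and CEACAM genes 37.7% and 65.9%. The 12 cytochrome P450 genes (CYP) had 9.17% and 45.0%, a difference of 35.8 points beside 36.8 for the ZNF members, and 3 of them (25.0%) were called for H2O2 over 3 antibodies. The 12 ribosomal protein genes, which are short and active in every cell, had 65.0% and 82.5%. The 25 C2H2 genes of the chromosome with other symbols, such as ZFP and ZSCAN genes, had 26.8% and 54.8%, beside 15.8% and 52.6% for the ZNF members. For H2O2 over 3 antibodies 4 of these 25 were called (16%, beside 14.6% of all genes), and 78 of the 240 ZNF members (32.5%). In the same test 4 of the 22 PSG and CEACAM genes (18.2%) and 3 of the 37 LILR, KIR and SIGLEC genes (8.11%) were called. It called 0 kallikrein, olfactory receptor and ribosomal protein genes.

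Regions over members ranked lower within their lists than those over other chromosome 19 genes in 17 of 20 libraries, by median percentile of total signal, and higher in 3: the first SMARCA1 siGl3 and the second SMARCA1 siOrc6 library with H2O2, and the first NT Orc6 library. The median over libraries was 43.7 for members and 53.0 for the others over NT libraries, and 49.0 and 56.1 over H2O2 libraries. A median of 3.5 regions per NT list and 14 per H2O2 list lay over 2 or more members.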
